A study of Oryza sativa with 3 samples.

Results

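Chlorophyll is made in the plastid from glutamate by the tetrapyrrole pathway, which first builds a porphyrin ring and then sends it either to haem or, by inserting magnesium, to chlorophyll. The magnesium branch ends with the light-driven reduction of protochlorophyllide and the attachment of a phytol tail. In green leaves its enzymes keep chlorophyll supplied to the photosystems, and their control matters because free intermediates are phototoxic. The enzymes described here were sought under 10 gene names of this pathway (HEMD, CHLH, CHLD, CHLI, PORA, PORB, CHLP, CHLG, CRD1 and CAO1), taken from the rice array annotation and from the RefSeq synonyms of the annotated genes, with any leading Os dropped and case ignored. A gene counted where a probe set was annotated to it alone. Of the 10 names 8 were found, with 9 probe sets among 17905 genes named on the array, and CRD1 and CAO1 dropped out because no annotated gene carried those names. Probe sets were matched to genes by name and not by any measured value, but the names were chosen with earlier results of these data known.

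The samples were leaves of Oryza sativa cultivar Kitaake, an early-flowering japonica rice, harvested at 6 weeks from greenhouse plants grown at the same time. There was 1 group of 3 replicates, each on 1 Affymetrix rice array, with no treatment, mutant or time point to compare. The labels do not say how many plants a replicate held or at what hour leaves were taken. Differences between replicates may therefore be technical in part, and precision is limited by having 3 arrays. Each value is the deposited log2 signal of a probe set, where a step of 1 is a doubling of signal, and errors are SDs over n = 3 arrays. Probes differ in how brightly they report a transcript, and signals of different genes are therefore not compared as amounts of messenger RNA. In whole leaf RNA, fewer cells of a type and less RNA per cell cannot be told apart.

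Leaf markers gave strong signal. Of 9 mesophyll genes matched by name, 8 lay above background on every array, with a median log2 signal of 14.10 over the 9. The exception was RBCS1, a Rubisco small subunit gene, which was not above background on any array. Above background means above the 95th percentile of 64 reporter control probe sets on the same array, a bound of 5.64, 5.60 and 5.77 on replicates 1, 2 and 3. Of the markers of other tissues, 2 of 5 anther genes, 1 of 4 shoot meristem genes, 2 of 4 root genes and 2 of 4 seed storage genes passed the same bound. Of all named genes 74.3% did, so passing it does not by itself mark a tissue. Some of these markers lay well above the bound, with GLB and GLUA-2 of seed storage at 9.96 and 9.46 and LSI1 of root at 9.10. The poly-A spike transcripts, which are added to the RNA before labelling, had medians that differed from their mean over the arrays by -0.03, 0.15 and -0.12 (log2) on replicates 1, 2 and 3, and 35 of their 36 probe sets were highest on replicate 2. Their part in the differences between replicates below was not tested.

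All 8 chlorophyll synthesis genes lay above background on every array, each through the 1 probe set used for it, where 74.3% of all named genes did so. Their median log2 signal was 11.15, against 8.11 over all named genes. The lowest mean was that of CHLI at 8.33 and the highest that of PORB at 13.29. Of their 9 probe sets 0 reached a 2-fold difference between the highest and lowest array, where 0.972% of all 57194 probe sets did, so the absence of large differences is not particular to these enzymes. The median SD over the 8 genes was 0.05, against 0.08 over all named genes, as deposited. Ranges moved with the scaling: the median range over the 8 genes was 0.10 as deposited, 0.15 with quantile normalization again and 0.28 with arrays centred on the spikes, against 0.16, 0.13 and 0.27 over all named genes, so no order of the 8 genes against all genes in spread held under each scaling.

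**Figure D1:**
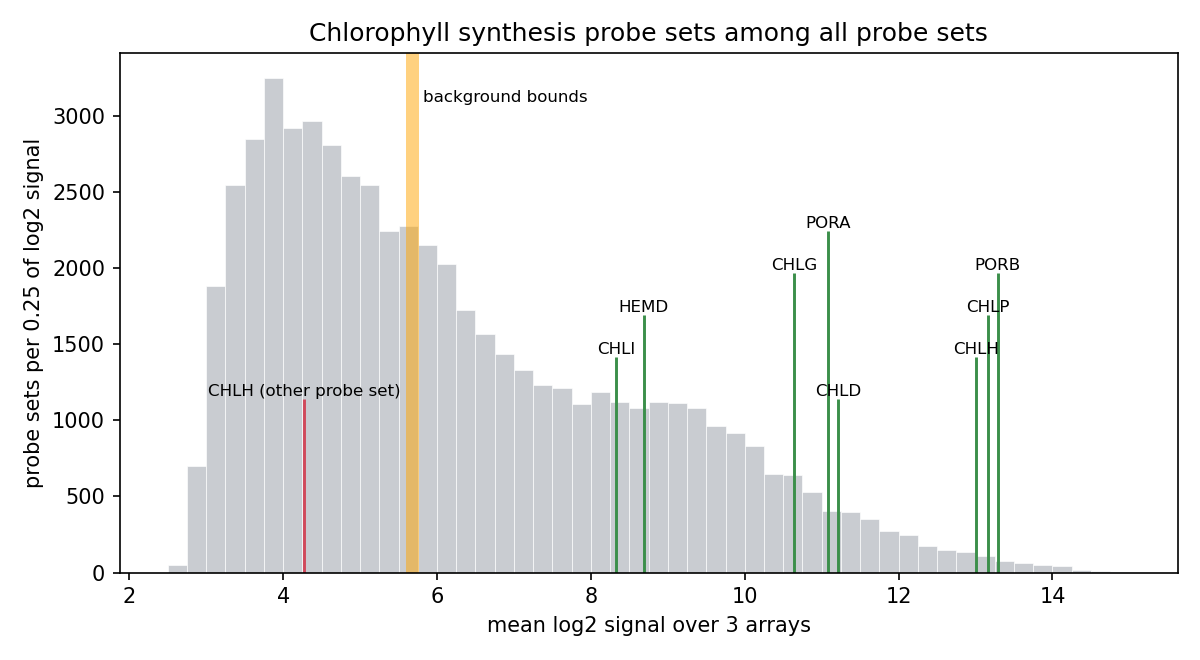
Mean log2 signal over 3 arrays for all 57194 probe sets (grey bars, number of probe sets per 0.25 of log2 signal) with the probe sets of the 8 chlorophyll synthesis genes as vertical lines, whose heights only separate the labels. The 8 probe sets used lie right of the orange band of background bounds (5.60 to 5.77), from CHLI at 8.33 to PORB at 13.29, and the other CHLH probe set (red) lies left of it at 4.28.

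HEMD (LOC4331869) stands furthest upstream of the 8. It encodes uroporphyrinogen III synthase, which closes the linear tetrapyrrole into a ring and serves haem and chlorophyll alike. Its log2 signal was 8.76, 8.82 and 8.49 on replicates 1, 2 and 3, or 8.69 ± 0.18 (SD, n = 3). Replicate 3 was the low array as deposited, with quantile normalization again and with arrays centred on the spikes. Centring on the median of all probe sets, also among the scalings tried here, changed no value. The highest array stood 1.26-fold over the lowest, a range of 0.33 on the log2 scale. Of the 1000 probe sets nearest to HEMD in mean signal, 23.6% had a range at least as large, so the spread was above the middle of its neighbours as deposited. With spike centring the range was 0.18, and 68% of the nearest probe sets matched or exceeded it. The mean signal was higher than or equal to that of 81.5% of all probe sets.

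Magnesium chelatase, the enzyme that commits protoporphyrin to chlorophyll by inserting magnesium, is built from several kinds of subunit, of which CHLH, CHLD and CHLI were represented. CHLH (LOC4332690), the large subunit that binds the porphyrin, had 12.96, 13.04 and 13.02, or 13.01 ± 0.04. Its arrays lay within 1.06-fold of each other as deposited. With spike centring its range was 0.25, against a median of 0.27 over its nearest probe sets on that scale. Replicate 1 was the lowest array as deposited and replicate 2 when arrays were centred on the poly-A spikes. CHLH had a further probe set, of the kind whose probes can match transcripts of several genes, which gave 4.20, 4.32 and 4.32. That probe set was not above background on any array, so the gene's value rests on the other one.

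CHLD (LOC4334537), which forms a ring complex with CHLI, had a log2 signal of 11.09, 11.25 and 11.29 on replicates 1, 2 and 3, or 11.21 ± 0.11. Replicate 1 was the low array by 0.17 and 0.20, a difference that 28.8% of the 1000 nearest probe sets matched or exceeded as a range, and replicate 2 became lowest when arrays were centred on the spikes. CHLI (LOC4333259), the subunit that hydrolyses ATP, had 8.33 on replicate 1, 8.33 on replicate 2 and 8.32 on replicate 3. As deposited its range was 0.0048, smaller than or equal to that of 94.5% of the 1000 nearest probe sets. The range was 0.15 with quantile normalization again, which 57.6% of its nearest probe sets on that scale matched or exceeded. With spike centring it was 0.26, which 42.6% did. Values that are equal to many digits, as on replicates 1 and 2 here, are common in this table (33.2% of named genes) and do not show an exact measurement. As deposited CHLH and CHLD were lowest on replicate 1 and CHLI was nearly level. With spike centring the 3 subunits were all lowest on replicate 2 and highest on replicate 3. That scaling moves every gene by -0.15 on replicate 2 and by 0.12 on replicate 3. Their common order on it is therefore no sign of a shared pattern.

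PORA and PORB encode NADPH-protochlorophyllide oxidoreductase, which needs light to turn protochlorophyllide into chlorophyllide. In rice PORA is known mainly from seedlings grown in the dark and early greening, and PORB from leaves in the light. In these green leaves both gave signal far above the background bounds. PORA (LOC4337415) had a log2 signal of 10.90, 11.25 and 11.10 on replicates 1, 2 and 3, or 11.08 ± 0.18. As deposited its SD and that of HEMD, both 0.18, were the largest of the 8 genes. With spike centring CHLG had the widest range of the 8 and HEMD the narrowest, at 0.35 and 0.18. Replicate 1 was lowest under each scaling tried, while replicate 2 was highest except with spike centring, where replicate 3 was. The highest array stood 1.28-fold over the lowest, and 9.4% of the 1000 nearest probe sets had a range as large as its 0.36 or larger. That share was 9.1% with quantile normalization again and 28.6% with spike centring.

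PORB (LOC4349004) had 13.28, 13.26 and 13.33 on replicates 1, 2 and 3, or 13.29 ± 0.04. Replicate 2 was lowest and replicate 3 highest under each scaling tried. Its range as deposited was 0.07, which 67.5% of the 1000 nearest probe sets matched or exceeded, and with spike centring it was 0.34, which 23.9% did. The log2 signal of PORA minus that of PORB was -2.38, -2.00 and -2.22 on the same arrays. Its size depends on the probes of both genes, but its span of 0.38 over the arrays is unaffected by any constant added to an array. As deposited PORA had the wider range of the pair, and with spike centring PORB did, at 0.34 against 0.29. The PORB probe set is of the kind in which some probes match other sequences, and PORB has no other probe set here, so a share of its signal from another transcript was not tested.

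**Figure D2:**
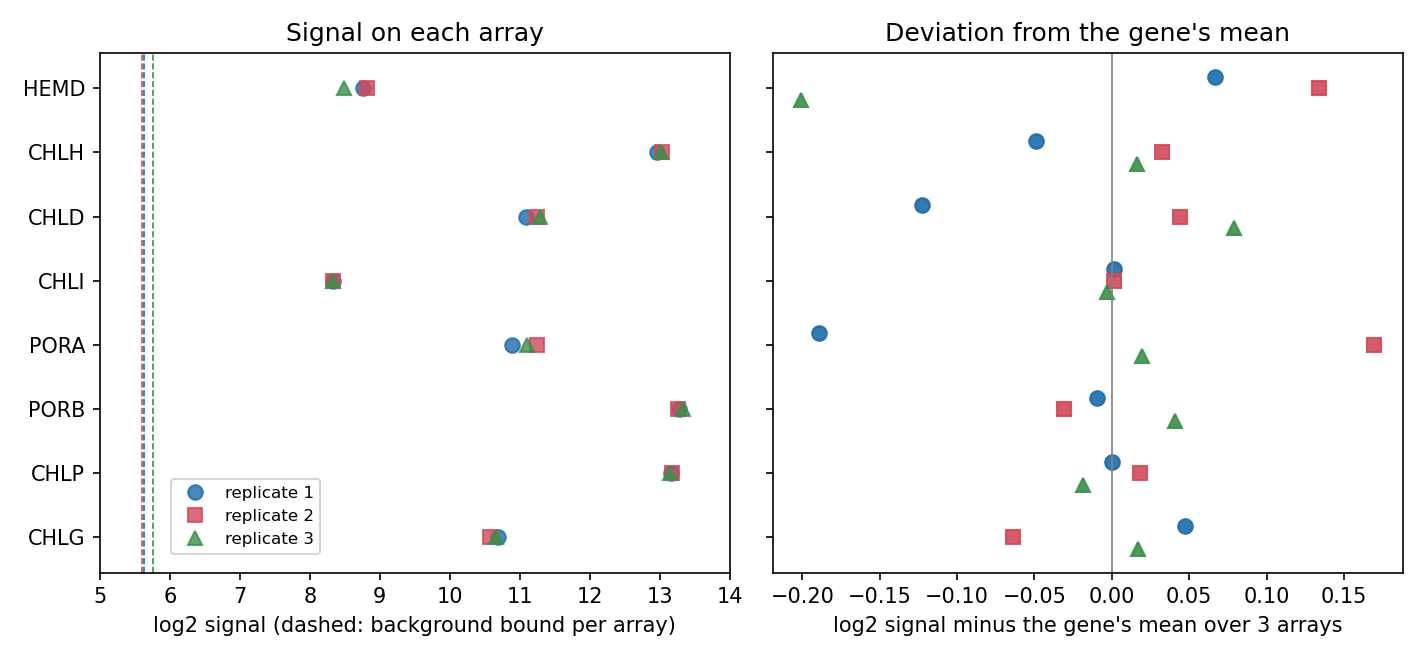
Left, log2 signal of each gene on replicates 1 to 3 (circles, squares, triangles), with the background bound of each array dashed, and right, the same values as differences from the gene's mean over the 3 arrays. PORA spreads from 10.90 to 11.25 and HEMD from 8.49 to 8.82, while the 3 arrays of CHLI coincide near 8.33.

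The last steps join the ring to its tail. CHLP (LOC4330711), geranylgeranyl reductase, makes the phytyl group used for chlorophyll and tocopherol. It had a log2 signal of 13.16, 13.18 and 13.14 on replicates 1, 2 and 3, or 13.16 ± 0.02, and its range as deposited, 0.04, was matched or exceeded by 82.6% of the 1000 nearest probe sets. With spike centring the range was 0.23, and 72.3% of the nearest probe sets on that scale matched or exceeded it. CHLG (LOC4338498), chlorophyll synthase, attaches that group to chlorophyllide. It had 10.69, 10.58 and 10.66, or 10.64 ± 0.06. Replicate 2 was lowest for CHLG under each scaling tried. As deposited its range of 0.11 lay near the 0.13 that was the median of its 1000 nearest probe sets, and with spike centring it was 0.35 against a median of 0.25.

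Across the 8 genes no replicate was low or high throughout. Replicate 1 was lowest for 3 genes (CHLH, CHLD and PORA), where 13.9% of all named genes above background were lowest on it. Replicate 2 was lowest for 2 (PORB and CHLG), where 7.84% of those genes were, and replicate 3 for 3 (HEMD, CHLI and CHLP), where 60.1% were. Replicate 1 was highest for 1 gene (29.0% of those genes), replicate 2 for 4 (35.3%) and replicate 3 for 2 (11.4%), with CHLI level on replicates 1 and 2. With 8 genes these counts carry no test. They also depended on the scaling. The lowest array was the same under all scalings for 4 of the 8 (HEMD, PORA, PORB and CHLG). The highest was the same for 2 (CHLD and PORB). Centring on the median of all probe sets is 1 of these scalings and changed no value, so it could not alter the order. The median over the 8 genes was 10.99, 11.25 and 11.20 on replicates 1, 2 and 3, against 9.02, 9.03 and 8.90 over all named genes above background.

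**Figure D3:**
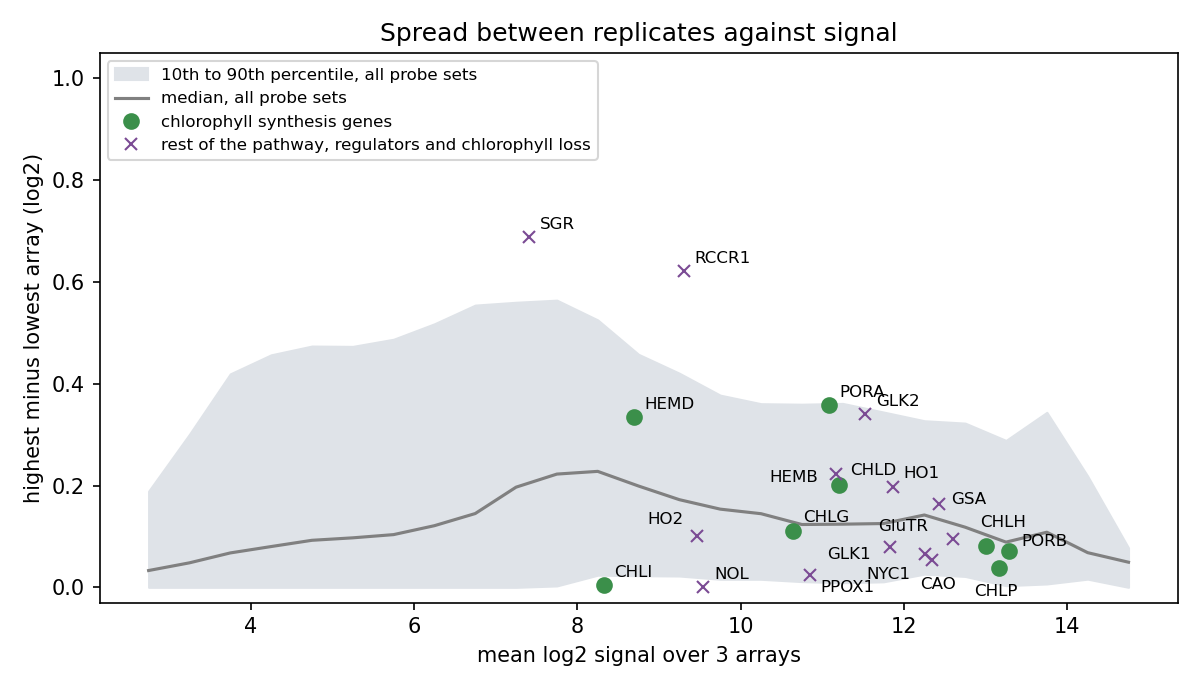
Highest minus lowest array (log2) against mean log2 signal over 3 arrays, for the 8 chlorophyll synthesis genes (green circles) and 13 further genes of the pathway, its regulators and chlorophyll loss (crosses), as deposited, over the median (grey line) and the span from the 10th to the 90th percentile (grey band) of all probe sets in steps of 0.5. PORA at 0.36 lies near the upper edge of the band, and CHLI at 0.0048 lies just below its lower edge, which is 0.024 there. With spike centring the ranges of PORA and CHLI were 0.29 and 0.26, against medians of 0.26 and 0.24 over their nearest probe sets. SGR and RCCR1 at 0.69 and 0.62 lie above the band.

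The rest of the pathway was read from a list of 75 names, some of them alternative names of 1 gene. By these names 13 further genes were found, all above background on every array through the probe set used. CHLM, GUN4, UROD, CPOX, PAO and PPH were among the names that matched no gene, so the pathway is covered only in part. In the upper pathway GluTR (LOC4349044), glutamyl-tRNA reductase, the first committed and most regulated step, had a log2 signal of 12.56, 12.66 and 12.60 on replicates 1, 2 and 3. GSA (LOC4346136), the aminotransferase that makes 5-aminolevulinate, had 12.33, 12.46 and 12.49 in the probe set used. Its other probe set had 4.86, 4.86 and 4.71 and was not above background on any array. HEMB (LOC4341997), which condenses 5-aminolevulinate to porphobilinogen, had 11.03, 11.22 and 11.26. The only probe set of HEMB is of the kind whose probes can match transcripts of several genes. As with CHLH, CHLD and PORA, the probe sets used for GluTR, GSA and HEMB were lowest on replicate 1 as deposited. The 8 enzymes, the upper pathway and CAO make 13 genes. Of these, 6 were lowest on replicate 1, 3 on replicate 2 and 3 on replicate 3, with CAO level on replicates 1 and 3. Of all named genes above background, 13.9%, 7.84% and 60.1% were lowest on replicates 1, 2 and 3. Of the 9 mesophyll markers, 4, 1 and 2 were lowest on these replicates, so being lowest on replicate 1 is not particular to this pathway. With 13 and 9 genes these counts carry no test. With spike centring, GluTR and GSA became lowest on replicate 2, and PORA and HEMB were the ones still lowest on replicate 1.

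PPOX1 (LOC4327918), protoporphyrinogen oxidase, the last step before the haem and chlorophyll branches part, had 10.85, 10.83 and 10.85. CAO (LOC4349433), by its symbol the oxygenase that makes chlorophyll b, had 12.33, 12.38 and 12.33. Its RefSeq synonyms also hold Lls1, the name of a maize gene of chlorophyll breakdown, so its role is not settled by name here. As deposited both were level to within 1.04-fold over the arrays. HEMC, which makes the substrate of HEMD, and DVR, divinyl reductase, were in the RefSeq table without a probe set annotated here.

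**Figure D4:**
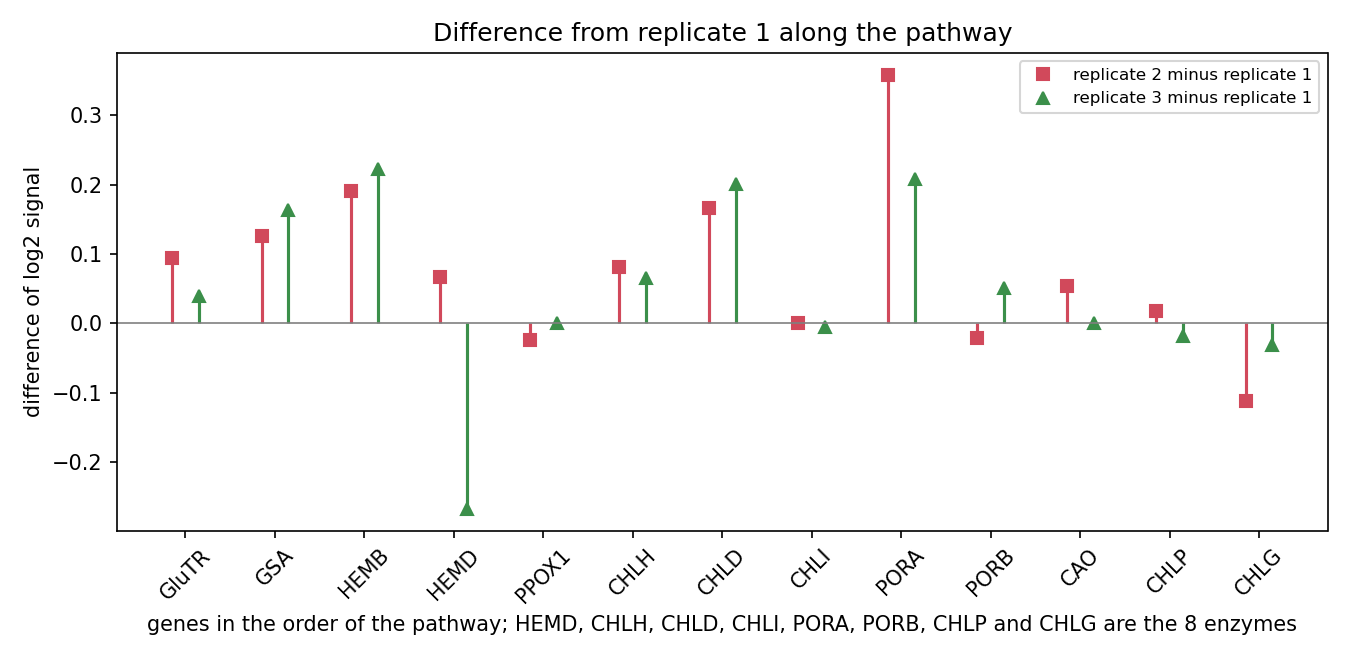
Difference of log2 signal from replicate 1 for replicate 2 (squares) and replicate 3 (triangles), as deposited, for 13 genes from GluTR to CHLG. GluTR, GSA, HEMB, CHLH, CHLD and PORA lie above 0 for both replicates (of these PORA and HEMB alone with spike centring), and HEMD in replicate 3 lies lowest, at -0.27.

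On the side branch to haem and bilins, HO1 (LOC4341462), the haem oxygenase also called SE5 that makes the phytochrome chromophore's precursor, had a log2 signal of 11.94, 11.89 and 11.75 on replicates 1, 2 and 3. HO2 had 9.41, 9.48 and 9.51. HO1 was lowest on replicate 3 and HO2 on replicate 1 as deposited, and both on replicate 2 with spike centring.

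GLK1 (LOC4340977) and GLK2 (LOC4326363) are transcription factors that activate chlorophyll synthesis and photosystem genes. GLK1 had 11.84, 11.86 and 11.78 on replicates 1, 2 and 3. GLK2 had 11.65, 11.62 and 11.31 in the probe set used, where replicate 3 was lowest. The other probe sets of GLK2 had 9.54, 9.44 and 8.95, then 7.48, 6.15 and 6.33, then 6.98, 6.39 and 5.89. Replicate 1 was highest in all 4 and under each scaling, but the ratio of highest to lowest array ran from 1.27-fold to 2.51-fold and the lowest array was not the same in each, so the probe sets disagree in size.

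Of the 13 probe sets used in the wider list, those of SGR and RCCR1, genes of chlorophyll loss, had the widest ranges as deposited. SGR (LOC4347672), the stay-green protein that removes magnesium from chlorophyll, had 7.72, 7.48 and 7.03 on replicates 1, 2 and 3 in the probe set used, and 9.80, 9.81 and 9.60 in its other one. RCCR1 (LOC4348519), red chlorophyll catabolite reductase, had 9.61, 8.98 and 9.32, a ratio of 1.54-fold between the highest and lowest array. For RCCR1, 3.1% of the 1000 nearest probe sets had a range at least as large. NYC1 (LOC4327178), a chlorophyll b reductase, had 12.29, 12.26 and 12.23. NOL (LOC4333604), its partner, had 9.54, 9.54 and 9.55 in the probe set used, and 7.67, 7.68 and 7.67 in its other one. As deposited the median range over these 4 genes was 0.34, against 0.16 over all named genes. But it was 0.14 with the other SGR probe set in place of the one used, a choice tried after the data were seen. In the same order these values were 0.35, 0.13 and 0.11 with quantile normalization again, and 0.44, 0.27 and 0.25 with spike centring. With 3 arrays of 1 group, none of these differences was tested.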

How the data were processed

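Per the labels' protocols, TRIzol-extracted leaf RNA was DNase-treated and column-cleaned, labelled with biotin and hybridised to Affymetrix rice arrays. The authors deposited 1 log2 signal for each probe set and array. Per the submitters' processing notes these came from RMA, whose version and settings are not stated in those notes or labels. RMA as usually run makes arrays share a distribution and returns exact ties when few arrays are summarised. SDs can therefore understate error, and a shift common to all genes can be hidden. Here the median of all probe sets was 5.63 on each array. Their 75th percentile was 7.91, 7.93 and 7.79 on replicates 1, 2 and 3. Of named genes above background, 60.1% were lowest on replicate 3, so a shift shared by many genes was still seen. Its cause was not tested.

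Of 57381 probe sets, 187 controls were set aside. The annotation gave 1 gene symbol for 22436 of the 57194 others, several for 95 and none for 34663. All 17905 genes were found in the RefSeq table of assembly ASM3414082v1, used for names only. A gene took the probe set ending in neither _x_at nor _s_at, then the one of highest mean. The list name FC1 matched a gene with the synonym CAD7, of lignin synthesis, and was set aside. The 34 marker names matched 26 genes.

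Values were computed in Python 3.11.15 with numpy 2.4.6, pandas 2.3.3 and matplotlib 3.10.9, with values within 1e-09 taken as equal. Counting was tested on simulated data. With 1 group, no test between groups was made. The genes and lists were chosen with earlier results of these data known. The text gives each of the 10 names sought and every matched gene of the wider list, but not all of that list's unmatched names. No gene was named for likeness over 3 arrays. Alternatives were scaling, probe set choice, background bound, fold, margin and leaving out each replicate. Ranges under each scaling and with the other SGR probe set were added after the data were seen.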

Additional observations from a re-analysis of the deposited data

How the results depend on the processing

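The count of 8 genes above background and the count of 0 genes spanning 2-fold were the same under every alternative run for them, including a bound at the highest reporter and a fold of 1.5. The median signal of 11.15 moved to 10.86 with the mean of all probe sets, where CHLH was 8.64, and ran from 11.09 to 11.23 without each replicate in turn. Which array was lowest or highest depended on the setting. With quantile normalization again, replicate 1 was highest for 0 genes, replicate 3 lowest for 1 and highest for 5. Centring on the poly-A spikes moved every gene by -0.15 on replicate 2 and by 0.12 on replicate 3. Replicate 1 was then lowest for 1, replicate 2 lowest for 6 and highest for 0, and replicate 3 lowest for 1 and highest for 7. These counts follow in part from those offsets. The shares of all named genes given above are for deposited values and do not apply to the quantile or spike scaling. With a margin of at least 0.1, replicates 1, 2 and 3 were lowest for 2, 0 and 1 genes and highest for 0, 1 and 0. Without each other replicate in turn, replicate 1 was lowest for 4 to 5 and highest for 2 to 4, replicate 2 lowest for 2 to 3 and highest for 5, and replicate 3 lowest for 4 to 5 and highest for 3 to 4. Having 2 arrays in place of 3 raises such counts by construction, and a margin can only lower them. The cause of the changes with quantile normalization again was not tested. Of 64 further values of single genes, 63 moved by no more than 1 SD, but most could not have moved further. Centring leaves a gene's mean over the arrays unchanged, and leaving out 1 of 3 arrays moves it by less than 1 SD. For the 7 genes with 1 probe set, the choice of probe set changes nothing. That count is therefore no measure of how stable the values are. No paired analysis was possible because there was 1 group. Signal over background does not limit the 8 probe sets used.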
